A study of Mus musculus with 6 samples.

Results

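Trim72, the mouse gene that encodes MG53, was followed together with the genes of its membrane and caveola partners: the ferlins Dysf and Myof, the caveolins Cav1, Cav2 and Cav3, and the cavins Cavin1, Cavin2, Cavin3 and Cavin4. The members were taken by gene symbol, which gave 10 rows of the 27179 in the deposited gene table. RNA had been sequenced from 6 libraries of primary cells that the labels name satellite cells, the stem cells of muscle. The cells came from the hindlimb muscle of C57BL/6 mice that the labels give as WT. Genes of muscle differentiation were abundant in them, as described below. Of the libraries, 3 were from cells given recombinant human MG53 protein (rhMG53, labelled hMG53) and 3 from cells given bovine serum albumin (BSA), the vehicle. All cells had been grown in medium with fetal serum and bFGF and were harvested at 72 h of treatment, day 3 in the labels. The labels call the cells ageing without giving an age. They do not say which mouse or culture a library came from, so the spread that p-values rest on may be partly technical. Total gene counts ran from 17374151 to 22738745 per library.

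MG53 is a TRIM family ubiquitin ligase of striated muscle that gathers at sites of plasma membrane injury and helps vesicles to seal the gap. It is known to work with dysferlin, a calcium-binding membrane protein of the ferlin family, and with caveolin-3. Caveolae are small pits of the plasma membrane built from caveolins, which sit in the membrane, and cavins, which coat it from the cytosol; they buffer membrane tension and hold signalling receptors. Muscle fibres use forms of their own, caveolin-3 and cavin-4, beside the cavins and caveolins that many cell types share. Because the added protein was human and was added as protein, counts at Trim72 do not include the added protein. Reads from an antisense gene that overlaps Trim72 could be among them, since the strand setting of the counting is unknown.

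Muscle differentiation genes were abundant in all 6 libraries, so the levels given here are not those of muscle stem cells alone. The 12 muscle differentiation markers, among them the embryonic myosin gene Myh3 and the fusion factor gene Mymx, summed to 60909 to 67818 CPM (gene counts scaled to the library total) with rhMG53 and 64206 to 66957 CPM with BSA, and 5 of the 12 had a positive log2 fold change, with a median of -0.01. That count was 8 or 9 without rhMG53 replicate 1, BSA replicate 2 or BSA replicate 3. Of the satellite cell and myoblast list 3 of 6 tested genes were higher with rhMG53, with a median log2 fold change of -0.01. That list summed to 2524 to 2599 CPM with rhMG53 and to 2648 to 2701 CPM with BSA. Most of it was the integrin gene Itga7, which differentiated muscle also expresses, at 1677 CPM with rhMG53 and 1781 CPM with BSA. Satellite cell gene Pax7 averaged 8.49 CPM with rhMG53 and 9.98 CPM with BSA. Its groups overlapped and it was not called (adjusted p = 0.965 in edgeR). In RNA from whole cultures, a difference in the number of cells of a type and one in RNA per cell cannot be told apart.

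The DNA just before the annotated start is shown for the 3 members of striated muscle that had the highest levels per length, and for Cav1, the caveolin of most other cell types, which was low. Each line gives the 250 bases before the start in GRCm38.p6, from RefSeq, on the plus strand, with matches to the E-box CANNTG, the core motif read by MyoD and myogenin, in capitals. The windows lie at chr7:128004128-128004377 for Trim72, chr6:112459255-112459504 for Cav3, chr4:48663264-48663513 for Cavin4 and chr6:17306085-17306334 for Cav1. The Trim72 start used here lies inside the annotated gene, which begins upstream at 128003462.
Trim72: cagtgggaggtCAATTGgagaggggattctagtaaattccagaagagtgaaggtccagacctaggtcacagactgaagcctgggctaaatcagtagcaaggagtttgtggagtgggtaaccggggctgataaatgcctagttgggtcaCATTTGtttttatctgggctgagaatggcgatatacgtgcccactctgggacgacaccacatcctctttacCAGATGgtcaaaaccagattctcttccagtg
Cav3: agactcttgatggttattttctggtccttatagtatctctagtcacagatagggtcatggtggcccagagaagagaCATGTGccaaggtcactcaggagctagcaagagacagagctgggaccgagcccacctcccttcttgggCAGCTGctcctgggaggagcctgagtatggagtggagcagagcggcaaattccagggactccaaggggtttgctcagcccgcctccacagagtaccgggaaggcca
Cavin4: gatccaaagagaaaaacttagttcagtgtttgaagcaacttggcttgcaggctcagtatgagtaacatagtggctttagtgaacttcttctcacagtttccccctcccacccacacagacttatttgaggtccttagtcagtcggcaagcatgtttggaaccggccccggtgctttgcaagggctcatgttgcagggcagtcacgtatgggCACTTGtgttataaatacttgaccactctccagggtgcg
Cav1: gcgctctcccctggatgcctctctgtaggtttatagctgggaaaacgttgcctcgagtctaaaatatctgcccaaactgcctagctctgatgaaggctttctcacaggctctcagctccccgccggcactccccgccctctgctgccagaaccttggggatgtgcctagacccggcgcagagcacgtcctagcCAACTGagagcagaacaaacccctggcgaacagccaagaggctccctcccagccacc
Trim72 had 3 E-boxes, starting 239, 102 and 31 bases before the start. Cav3 had 2, at 174 and 106 bases, and the nearer one was CAGCTG. Cavin4 had 1, at 39 bases, and Cav1 had 1, at 57 bases. The window of a second annotated start of Cav1, not shown, also had 1, CAGGTG, at 158 bases. CANNTG, which reads the same on both strands, was present in 66.2% of all 32851 windows of this length, and CAGCTG, a subset of it, in 13.0%. Another subset, CACCTG or CAGGTG, was present in 17.2%. Of the 9 members with a window, 5 held CANNTG, 1 (Cav3) held CAGCTG and 1 (Cav1) held CACCTG or CAGGTG. The MCAT motif CATTCC, on either strand, was held by 1 (Cavin1), against 12.6% of all windows. The MEF2 consensus or a CArG box was held by 0, while 0.508% and 1.47% of all windows hold them. A match in these windows is a description of the letters and not evidence of binding.

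Within each family the striated muscle form was the most abundant transcript, by far among the caveolins. Levels of different genes are compared here as CPM per kilobase of annotated exons, over all 6 libraries. Trim72 stood at 625 ± 32.0 CPM per kb and Cavin4, which encodes the cavin of heart and skeletal muscle, at 509.6 ± 16.2 CPM per kb (SD, n = 6 each). They lay at percentiles 99.6 and 99.5 of the 13236 with a length.

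Cav3, which encodes the caveolin of striated muscle, followed at 252 ± 15.8 CPM per kb and Cavin1, the cavin that every caveola needs, at 110.03 ± 3.51 CPM per kb. Dysf stood at 35.6 ± 2.65 CPM per kb and Myof, the ferlin gene of fusing myoblasts and many other cells, at 29.7 ± 3.99 CPM per kb. Cavin2, which encodes a cavin that binds phosphatidylserine and helps to curve the membrane, stood at 16.5 ± 1.66 CPM per kb. Cav1, which encodes the main caveolin outside striated muscle, was at 6.64 ± 0.516 CPM per kb, near the middle of all tested genes (percentile 53.4). The lowest levels were those of Cavin3, the gene of a cavin that binds protein kinase C delta, at 4.91 ± 0.623 CPM per kb, and Cav2, whose product assembles with caveolin-1, at 1.17 ± 0.235 CPM per kb. Only Dysf and Myof, next to each other in this order, had ranges over the 6 libraries that overlapped.

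**Figure D1:**
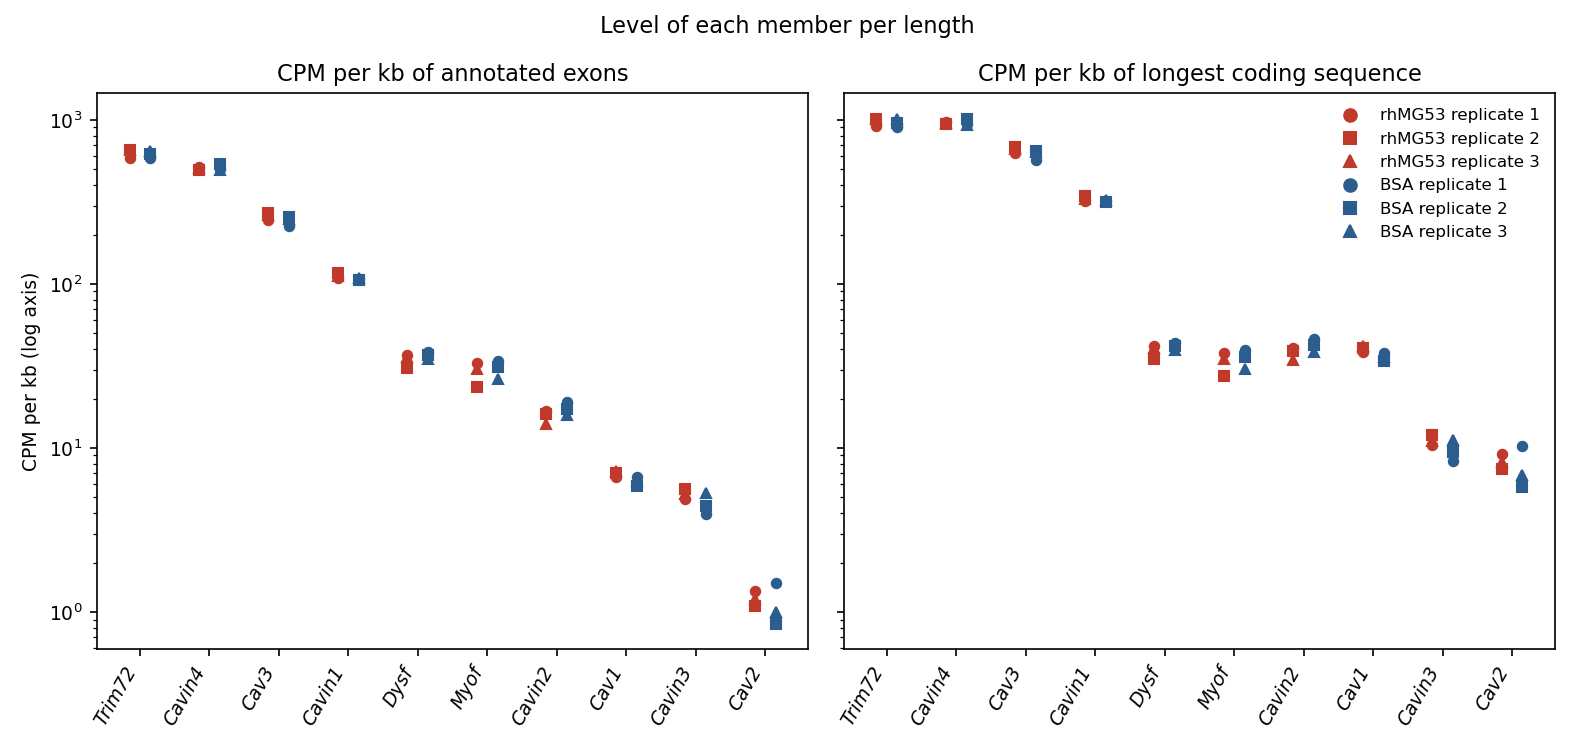
Level of each member in each library on a log axis, in CPM per kb of annotated exons (left) and per kb of the longest coding sequence (right), with rhMG53 libraries in red and BSA libraries in blue. Trim72, Cavin4, Cav3 and Cavin1 are the 4 highest in both panels, and Cavin3 and Cav2 the 2 lowest.

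Cav3 made up 96.8% to 97.1% of the summed caveolin level per length in the 3 rhMG53 libraries and 96.5% to 97.4% in the 3 BSA libraries. The within-library ratio of Cav3 to Cav1 was 36.8, 38.4 and 36.2 in rhMG53 replicates 1 to 3, against 33.98, 43.4 and 39.9 in BSA replicates 1 to 3. The rhMG53 ratios fell inside the range of the BSA ratios.

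Cavin4 made up 78.4% to 79.8% of the cavin level with rhMG53 and 79.2% to 80.8% with BSA, and Cavin1 made up most of the rest, at 16.9% to 18.2% with rhMG53 and 15.9% to 17.5% with BSA. The ratio of Cavin4 to Cavin1 was 4.73, 4.30 and 4.54 in rhMG53 replicates 1 to 3, against 4.65, 5.08 and 4.53 in BSA replicates 1 to 3. The ferlins were close to even, with a ratio of Dysf to Myof of 1.13, 1.30 and 1.18 in rhMG53 replicates 1 to 3, against 1.13, 1.18 and 1.33 in BSA replicates 1 to 3. The mean log2 ratio with rhMG53 minus that with BSA was -0.07 for Cav3 to Cav1, -0.01 for Dysf to Myof and -0.07 for Cavin4 to Cavin1. None of the 3 differences passed the test (exact 2-sided permutation p = 0.6, 0.8 and 0.5, each 0.8 after adjustment over the 3 ratios), and 3 libraries against 3 cannot give a p below 0.1.

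The order in the middle of the set depended on the length used, with Myof below Cavin2 and Cav1 on coding length and above both on exon length. Per kb of the longest coding sequence the 4 highest members kept their order, but the ranges of Trim72 (973 ± 49.9) and Cavin4 (961 ± 30.6 CPM per kb) then overlapped. Dysf, Cavin2, Cav1 and Myof had overlapping neighbours on that scale, at 34.3 to 40.3 CPM per kb, and so did Cavin3 and Cav2, at 10.4 and 7.95 CPM per kb. The ratio of Cav3 to Cav1 was 16.8 and that of Cavin4 to Cavin1 2.95 with coding lengths, against 38.0 and 4.63 with exon lengths.

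Endothelial and adipocyte markers were scarce. The 10 endothelial markers summed to 7.41 to 9.57 CPM with rhMG53 and 9.50 to 10.2 CPM with BSA. Their most abundant gene, Vwf, averaged 4.40 CPM with rhMG53 and 4.96 CPM with BSA, and Tie1 0 CPM with rhMG53 and 0.0186 CPM with BSA. All 3 tested endothelial genes had lower values with rhMG53 (median log2 fold change -0.19) and none was called. The lowest p among them was that of Emcn (log2 fold change -0.90), a gene near the floor at 0.303 to 1.14 CPM per library. Its groups did not overlap, as in 4.83% of all tested genes lower with rhMG53. The 8 adipocyte markers summed to 1.78 to 2.42 CPM with rhMG53 and 1.40 to 2.95 CPM with BSA, with both tested genes higher (median log2 fold change 0.03), Pparg the most abundant and Retn at 0 counts in all libraries. The higher adipocyte count was 0 or 1 without any library other than BSA replicate 1.

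Fibroblast and fibro-adipogenic markers summed to 1196 to 1303 CPM with rhMG53 and 1047 to 1298 CPM with BSA, most of it the collagen genes Col1a1 and Col3a1. The other markers of that list were far lower. The highest of them, Pdgfra, averaged 22.8 CPM with rhMG53 and 20.9 CPM with BSA, and Pi16 averaged 0.161 CPM with rhMG53 and 0.155 CPM with BSA. Of their 8 tested genes 5 were higher (median log2 fold change 0.09). Smooth muscle and pericyte markers summed to 7722 to 8214 CPM with rhMG53 and 7324 to 7992 CPM with BSA, but most of this was the desmin gene Des, which skeletal muscle expresses, and Kcnj8 was at 0 counts in all libraries; 3 of 6 tested genes were higher (median -0.03). Leukocyte markers summed to 7.66 to 12.2 CPM with rhMG53 and 7.49 to 8.49 CPM with BSA, led by Itgam, with Adgre1 at 0.0371 CPM with rhMG53 and 0.0806 CPM with BSA, and 4 of 4 tested genes were higher (median 0.07), or 2 without rhMG53 replicate 1 or 2. The highest sum was that of rhMG53 replicate 2, where Lyz2 stood at 4.06 CPM, against a mean of 0.637 CPM with BSA. Schwann cell markers summed to 1626 to 1735 CPM with rhMG53 and 1772 to 1828 CPM with BSA, nearly all of it Ncam1, which muscle cells express, while Sox10 averaged 0.114 CPM with rhMG53 and 0.0186 CPM with BSA; 2 of 4 tested genes were higher (median 0.21). No gene of any marker list was called. The part of these cells in the levels of Cav1, Cav2 and the shared cavins was not tested.

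With rhMG53 against BSA, no member was called. The test was edgeR's quasi-likelihood test on all 13769 genes that passed a filter on low counts, with a threshold of 0.05 on the Benjamini-Hochberg adjusted p, and all 10 members passed the filter. Of all tested genes 0.0218% were called, the metallothionein genes Mt1 and Mt2 and the heme oxygenase gene Hmox1, all 3 higher with rhMG53, and 0 genes were called without BSA replicate 2. Of the members 6 had higher and 4 lower fitted values with rhMG53, with a median log2 fold change of 0.05 against 0.00 over all tested genes. Their adjusted p was 0.965 to 0.996, 0 of 10 had an unadjusted p under 0.05 (5.20% of all tested genes did), and DESeq2, which called 0.0363% of all genes, and limma voom, which called 0.0218%, also called 0 members, with 0 at an unadjusted p under 0.05 in each.

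**Figure D2:**
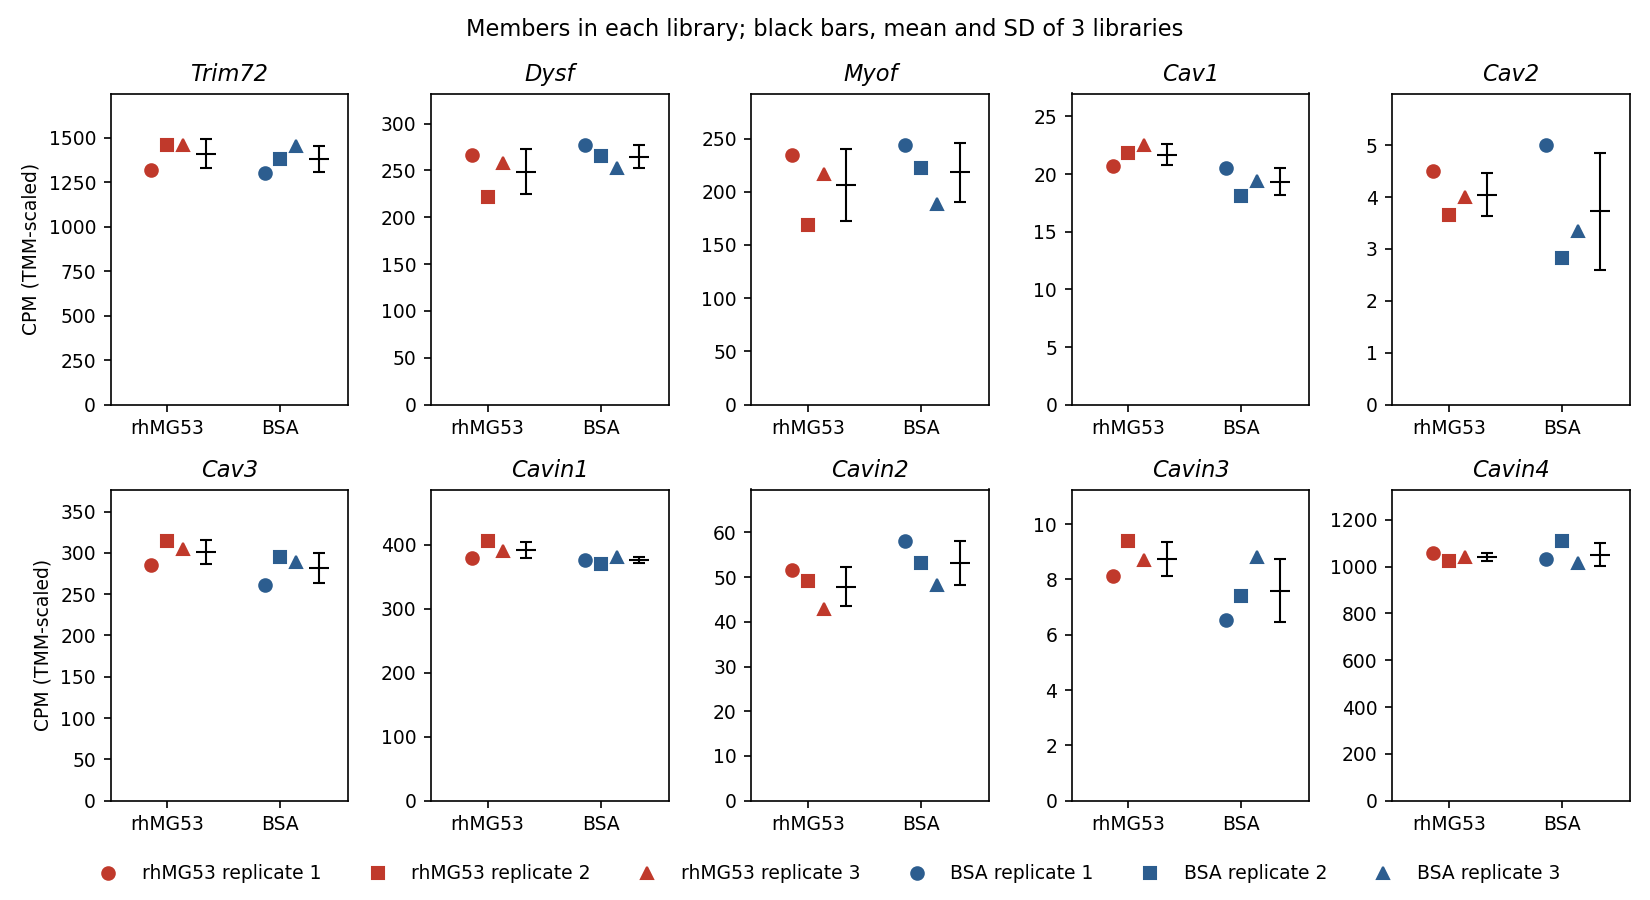
Each member in each library, in CPM with TMM-scaled library sizes and axes that start at 0, rhMG53 left of BSA, with black bars for the mean and SD of 3 libraries. The groups overlap for every member except Cav1, whose lowest rhMG53 library (20.7 CPM) lies just above its highest BSA library (20.5 CPM).

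Trim72, the endogenous MG53 gene, had 1318, 1458 and 1457 CPM in rhMG53 replicates 1 to 3, against 1305, 1380.3 and 1454 CPM in BSA replicates 1 to 3. The lowest libraries were replicate 1 of either group and the groups overlapped. The fold change of 1.02 had a 95% interval of 0.917 to 1.14 (log2 fold change 0.03, SE 0.071), so these libraries allow a decrease of 8.26% or an increase of 13.98%. Without BSA replicate 1 the log2 fold change was -0.0049. Its 24431 to 29530 counts per library put counting error at 0.615%, well under the within-group spread of 5.57%.

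Dysf, whose loss causes limb-girdle muscular dystrophy in humans, had 267, 222 and 257 CPM in rhMG53 replicates 1 to 3, against 277, 265 and 252 CPM in BSA replicates 1 to 3. Its low library was rhMG53 replicate 2, and the groups overlapped (log2 fold change -0.09, SE 0.076, interval -0.26 to 0.08, or -0.0137 without that library). Myof had 234, 169 and 217 CPM in rhMG53 replicates 1 to 3, against 244, 223 and 188 CPM in BSA replicates 1 to 3. The lowest were rhMG53 replicate 2 and BSA replicate 3, and the log2 fold change was -0.08 (SE 0.120, interval -0.34 to 0.19). Without rhMG53 replicate 2 it was 0.0483 and without BSA replicate 1 it was 0.0105. Dysf and Myof ranked the 6 libraries in the same order. Apart from Cav2, Myof varied most of the members within groups, by 14.6%, against 8.63% for the median tested gene and a counting error of 1.57%.

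Cav3 had 285, 314 and 305 CPM in rhMG53 replicates 1 to 3, against 261, 294 and 289.5 CPM in BSA replicates 1 to 3. The groups overlapped, with BSA replicate 1 lowest (log2 fold change 0.10, SE 0.067, interval -0.05 to 0.24). Cav1 had 20.7, 21.9 and 22.5 CPM in rhMG53 replicates 1 to 3, against 20.5, 18.1 and 19.4 CPM in BSA replicates 1 to 3. It was the only member whose groups did not overlap, by a gap of less than the SD of either group, and 5.94% of all tested genes were likewise higher in every rhMG53 library. Its log2 fold change was 0.16 (SE 0.080, interval -0.01 to 0.34, adjusted p = 0.965 in edgeR).

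Cav2 was too low to measure well. It had 4.49, 3.65 and 4.0 CPM in rhMG53 replicates 1 to 3, against 4.99, 2.82 and 3.35 CPM in BSA replicates 1 to 3, from 50 to 113 counts per library. The BSA libraries held both its highest and its lowest value. Its interval of -0.36 to 0.56 on the log2 scale was the widest of the 10 (log2 fold change 0.10, -0.0569 without BSA replicate 2 and 0.3914 without BSA replicate 1). Cav2 lies 17205 bases upstream of Cav1 on chromosome 6, on the same strand, and the pair shared neither their level per length nor their order of libraries.

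Among the cavins Cavin1 had 379.9, 406 and 390.15 CPM in rhMG53 replicates 1 to 3, against 377, 371 and 381 CPM in BSA replicates 1 to 3. Its within-group spread of 2.57% was the smallest of the members (log2 fold change 0.06, SE 0.057, interval -0.07 to 0.18). Cavin4 had 1058, 1025 and 1042 CPM in rhMG53 replicates 1 to 3, against 1031, 1108 and 1016 CPM in BSA replicates 1 to 3. The rhMG53 values lay inside the BSA range (log2 fold change -0.01, SE 0.062, interval -0.15 to 0.12), and the log2 fold change was 0.025 without BSA replicate 2 and 0.0004 with library size as the only scaling.

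Cavin2 had 51.5, 49.0 and 43.0 CPM in rhMG53 replicates 1 to 3, against 58.0, 53.1 and 48.2 CPM in BSA replicates 1 to 3. It had the most negative log2 fold change of the members, -0.15 (SE 0.088, interval -0.34 to 0.04), with 1 of 3 rhMG53 libraries below all BSA libraries. No member was lower in every rhMG53 library, as 4.83% of all tested genes were. Cavin3 had 8.13, 9.37 and 8.69 CPM in rhMG53 replicates 1 to 3, against 6.54, 7.40 and 8.80 CPM in BSA replicates 1 to 3. It had the most positive log2 fold change, 0.21 (SE 0.133, interval -0.08 to 0.50), from 131 to 172 counts per library, and its groups overlapped.

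**Figure D3:**
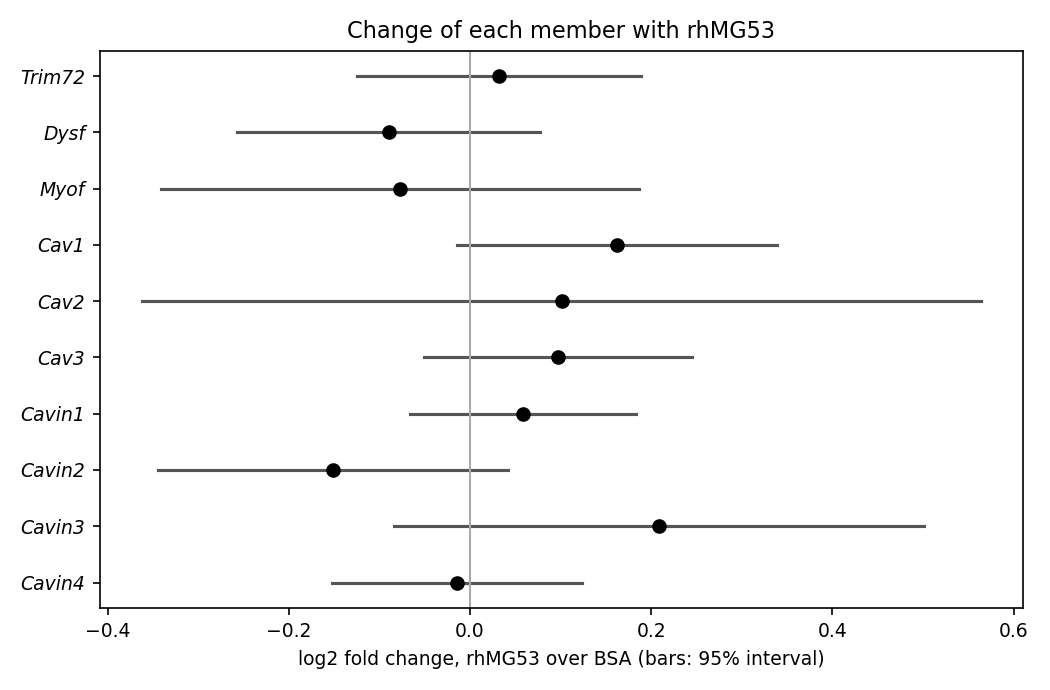
Log2 fold change of each member, rhMG53 over BSA, from edgeR (points) with its 95% interval (bars). All 10 intervals include 0, from the narrow interval of Cavin1 (-0.07 to 0.18) to the wide interval of Cav2 (-0.36 to 0.56).

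Libraries differed in the level of genes with long transcripts, and the part of this in the ferlin values was not tested. Dysf and Myof have 7207 and 7148 bases of annotated exons, the longest of the members. The 2206 tested genes with at least 6 kb of exons had a median deviation from their own mean of -0.16 on the log2 scale in rhMG53 replicate 2 and -0.08 in BSA replicate 3, and of 0.04 to 0.10 in the other 4 libraries. Dysf deviated by -0.21 and -0.02 and Myof by -0.32 and -0.16 in the same pair of libraries. The 3080 genes with 2 kb or less had median deviations of 0.10 and 0.02 there. Trim72, with 2233 bases, was 0.06 above its mean in both.

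With a trend on exon length removed from each library, an alternative chosen after seeing the data, the within-group spread of Dysf was 1.62% instead of 7.40%, close to its counting error of 1.43%, and that of Myof 8.23% instead of 14.6%. That of Trim72 was 4.27% instead of 5.57%, while that of Cavin4 was larger, 5.25% instead of 3.51%. Dysf then had 253, 245 and 253 CPM in rhMG53 replicates 1 to 3, against 260.1, 259 and 265 CPM in BSA replicates 1 to 3. Those groups did not overlap, as in 5.66% of genes lower and 6.32% of genes higher with rhMG53 in every library in the same fit, and the edgeR test still did not call Dysf (log2 fold change -0.06, SE 0.047, adjusted p = 0.881). The log2 fold change was -0.09 for Dysf and -0.08 for Myof before this step, and that of Myof was -0.05 after it. Of the libraries low in long transcripts, 1 was from the rhMG53 group (median deviation -0.16) and 1, less low, from the BSA group (-0.08).

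**Figure D4:**
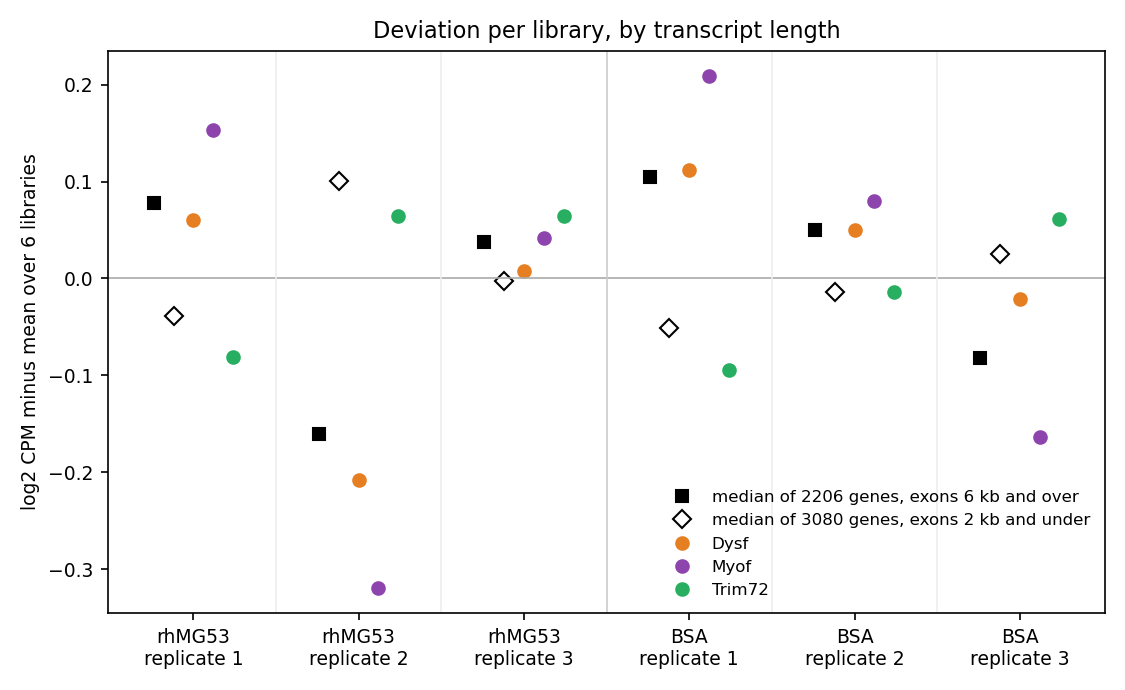
Log2 CPM of Dysf, Myof and Trim72 minus each gene's mean over the 6 libraries, with the median of the same measure over genes with at least 6 kb (squares) and at most 2 kb (diamonds) of annotated exons. Long genes, Dysf and Myof lie lowest in rhMG53 replicate 2, at -0.16, -0.21 and -0.32, where Trim72 is 0.06 above its mean.

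The genes whose profile over the 6 libraries was nearest to that of Trim72 were ranked by the root mean square difference of log2 CPM after each gene was centred on its mean. Among 10117 candidates with a mean of at least 5 CPM the 5 nearest were Ctdnep1, a nuclear envelope phosphatase gene, Cfap298, Lrwd1, the tubulin gene Tubb4b and Pacsin3, which encodes a membrane-bending protein of muscle caveolae. Their differences were 0.0146 to 0.0171 on the log2 scale, against 0.112 for the median candidate. Pacsin3 had 366, 401 and 402 CPM in rhMG53 replicates 1 to 3, against 353, 385 and 394 CPM in BSA replicates 1 to 3. Among the other members Cav3 (0.0485) and Cavin1 (0.0537) were nearest to Trim72, with 5.03% and 7.23% of candidates nearer than they were, and Myof (0.243) and Cav2 (0.306) were farthest. Trim72 varied little, so nearness here also reflects low variation.

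No gene of the wider membrane repair lists was called. Vamp7 was at 0 counts in all 6 libraries. Whether it was absent from the cells or lost in the counting was not tested, since the annotation and the handling of multi-mapping reads are not given. The ESCRT gene Chmp4c and the ferlin genes Otof and Fer1l4 were too low to be tested, at up to 0.857, 0.0576 and 0.112 CPM in any library. Of 10 genes listed as partners or substrates of MG53, 4 were higher and 6 lower with rhMG53 (median log2 fold change -0.01). The higher count was 2 to 6 when a library was left out and 7 with the length trend removed. The lowest p in that list was that of Zfp36, the gene of an RNA-binding protein that promotes mRNA decay, at 59.3 ± 4.16 CPM with rhMG53 and 66.2 ± 3.66 CPM with BSA (SD, n = 3 each; log2 fold change -0.16, adjusted p = 0.950 in edgeR). Bves, which encodes a membrane protein of muscle, was next (-0.06, adjusted p = 0.986 in edgeR). Ube2h, which encodes the ubiquitin-conjugating enzyme that works with MG53, averaged 178 CPM with rhMG53 and 174 CPM with BSA. Of the other ferlins only Fer1l6 passed the filter, at 0.579 CPM with rhMG53 and 0.501 CPM with BSA (log2 fold change 0.17), so Dysf and Myof made up nearly all ferlin transcripts measured.

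Of 15 genes of dysferlin partners and calpains, the proteases that cut dysferlin on injury, 12 were higher and 3 lower (median log2 fold change 0.05, against 0.00 over all tested genes). In 5 of them every rhMG53 library was above every BSA library and in 1 below, where 5.94% and 4.83% of all tested genes were so placed. An unadjusted p under 0.05 was given to 4, against 5.20% of all tested genes, and 0 were called. The list was chosen with earlier results of these data known, so these shares are a description and were not tested. S100a10, the annexin A2 partner, had 47.2, 53.6 and 44.2 CPM in rhMG53 replicates 1 to 3, against 42.4, 39.2 and 41.1 CPM in BSA replicates 1 to 3 (log2 fold change 0.24, SE 0.079, adjusted p = 0.935 in edgeR). Anxa2, which encodes annexin A2, had 319.9, 333 and 310.2 CPM in rhMG53 replicates 1 to 3, against 286, 287 and 297 CPM in BSA replicates 1 to 3 (log2 fold change 0.15, SE 0.057, adjusted p = 0.946 in edgeR). Ahnak, a very large scaffold protein that binds dysferlin, deviated by -0.67 in rhMG53 replicate 2 and -0.41 in BSA replicate 3. Myof was low in both of these libraries and Dysf in rhMG53 replicate 2. The median of genes with at least 6 kb of exons was also low there, at -0.16 and -0.08, and a link of Ahnak to the ferlins was not tested.

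Of 19 genes of caveola accessories and flotillins 12 were higher and 7 lower (median log2 fold change 0.05). Ehd1, which encodes an ATPase of endocytic membranes, had 157.1, 157.5 and 152 CPM in rhMG53 replicates 1 to 3, against 136, 149.6 and 146 CPM in BSA replicates 1 to 3 (log2 fold change 0.12, SE 0.059, adjusted p = 0.965 in edgeR). Src, which encodes the kinase that phosphorylates caveolin-1, averaged 32.99 ± 2.09 CPM with rhMG53 and 29.9 ± 1.32 CPM with BSA (SD, n = 3 each; log2 fold change 0.14, adjusted p = 0.965 in edgeR). Of 17 tested genes of ESCRT, vesicle fusion and lysosomal repair 11 were higher and 6 lower (median 0.04), with Snap23, a vesicle fusion gene, at -0.14 (SE 0.069) and Vps4b, an ESCRT ATPase gene, at 0.08 (SE 0.061), both with an adjusted p of 0.954 to 0.973 in edgeR.

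Positions in mm10 (RefSeq, GRCm38.p6) place Trim72 (gene ID 434246) on chromosome 7 from 128003462 to 128011393, Dysf (26903) on chromosome 6 from 84008361 to 84211060 and Myof (226101) on chromosome 19 from 37899036 to 38043577. Cav1 (12389) lies at 17306335 to 17341328, Cav2 (12390) at 17281185 to 17289130 and Cav3 (12391) at 112459505 to 112472872, all on chromosome 6. Cavin1 (19285) lies on chromosome 11 from 100956736 to 100970617, Cavin2 (20324) on chromosome 1 from 51289126 to 51302960, Cavin3 (109042) on chromosome 7 from 105480616 to 105482197 and Cavin4 (68016) on chromosome 4 from 48663514 to 48673492. In GENCODE M21 exons of Trim72, Dysf and Cavin3 overlap exons of genes on the other strand, by up to 496, 150 and 374 bases, and the strand setting of the counting is unknown, so reads from these partners cannot be told apart from those of the members.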

How the data were processed

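The table the authors deposited holds raw counts, as whole numbers, for 27179 NCBI gene IDs in 6 libraries. STAR, featureCounts and edgeR are named, with build mm10, per the submitters' processing notes. For annotation, strand setting and multi-mapping reads the answer is not given in the sources used here. Per the labels' protocols, libraries were directional and poly(A)-selected.

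IDs were named from a RefSeq table of GRCm38.p6 (25275 IDs) and a GENCODE M21 table (18 more). Exon length is the union of exons in the GENCODE M21 basic set. Genes were filtered with filterByExpr (minimum count 10, minimum total 15), scaled with TMM factors and tested with edgeR 4.0.16 in R 4.3.3 (quasi-likelihood F test, treatment as the only term, 2-sided, Benjamini-Hochberg over 13769 genes, threshold 0.05). Each SE was computed as the size of the log2 fold change over the root of its F statistic, and intervals are at 95%. CPM of single members use TMM-scaled library sizes, and list sums and the levels given in the text for marker genes, Ube2h and Fer1l6 use plain totals. The log2 deviations used a prior count of 2. The biological coefficient of variation was 7.89%. Counting error is 1 over the square root of the mean count.

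Named genes are the members, the called genes, the 5 genes nearest to Trim72, the 2 genes of smallest p with at least 5 CPM in each pathway list, and the most and least abundant gene of each marker list. Pax7, Col3a1, Ube2h, Fer1l6, Ahnak, Lyz2, Emcn and Pdgfra were named after their values were seen. The members and lists were chosen with earlier results of these data known. Alternatives were RLE, upper quartile and library size scaling, other filters, DESeq2 1.42.0, limma voom (limma 3.58.1), a replicate term, each library left out, coding length and, after seeing the data, a loess trend on exon length (span 0.5) as an offset.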

Additional observations from a re-analysis of the deposited data

How the results depend on the processing

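No member was called under any of the alternatives run, and Cav2 was not tested with a minimum mean of 5 CPM. In edgeR an unadjusted p under 0.05 was given to 1 member with the replicate block (Cavin2) and to 1 without BSA replicate 1 (Cav1). Without BSA replicate 3 it was given to 2 (Cavin2 and Cavin3). Signs turned for Trim72 without BSA replicate 1 (log2 fold change -0.0049), for Myof without rhMG53 replicate 2 (0.0483) or BSA replicate 1 (0.0105), for Cav2 without BSA replicate 2 (-0.0569) and for Cavin4 without BSA replicate 2 (0.025) or with library size alone (0.0004), and for the other 6 members under none. The cause was not tested. Leaving out each library gave -0.0049 to 0.0785 for Trim72, -0.1446 to -0.0137 for Dysf, -0.1781 to 0.0483 for Myof, 0.1193 to 0.21 for Cav1, -0.0569 to 0.3914 for Cav2, 0.0461 to 0.1347 for Cav3, 0.0326 to 0.0796 for Cavin1, -0.2158 to -0.0801 for Cavin2, 0.1079 to 0.3283 for Cavin3 and -0.0387 to 0.025 for Cavin4. The difference of the log2 ratio was -0.166 to 0.0099 for Cav3 to Cav1, turning without BSA replicate 2, -0.0686 to 0.058 for Dysf to Myof, turning without rhMG53 replicate 1 (0.0333), rhMG53 replicate 3 (0.0038) or BSA replicate 3 (0.058), and -0.1049 to -0.0222 for Cavin4 to Cavin1.

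Over all genes 3 were called higher, against 6 with no filter, 5 in DESeq2 and 0 to 4 when a library was left out, 0 of them without BSA replicate 2. With the replicate block 0 genes were called. The labels tie no replicate number to a mouse or culture, so the numbers were not taken as pairs. Correlations of the deviations of same-numbered libraries were 0.19, -0.13 and -0.15 for numbers 1, 2 and 3. With 3 libraries per group they cannot settle whether the libraries were paired. Genes called lower were 0 in every fit run, with 306 at an unadjusted p under 0.05 in edgeR, 156 in DESeq2 and 312 in limma voom. Of the list counts, higher MG53 partners and substrates were 4, against 2 with upper quartile factors, 7 with the length trend removed and 2 to 6 without a library, muscle differentiation markers 5, against 8 with library size alone and 4 to 9 without a library, adipocyte markers 2, against 1 with the length trend removed and 0 to 2 without a library, and leukocyte markers 4, against 2 to 4 without a library.

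With coding length the levels were 973.2 CPM per kb for Trim72, 961.2 for Cavin4, 639.1 for Cav3, 325.8 for Cavin1, 40.3 for Dysf, 40.1 for Cavin2, 38.2 for Cav1, 34.3 for Myof, 10.4 for Cavin3 and 7.95 for Cav2, and the ratios were 16.8 for Cav3 to Cav1 and 2.95 for Cavin4 to Cavin1. Depth limits Cav2 and Cavin3, whose counting errors were 11.6% and 8.07%, and counting error covers reads only.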
